A study of Canis lupus familiaris with 8 samples.

Results

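Genes of cell adhesion and of the junctions between heart cells were examined in left ventricle of control dogs and of dogs with alloxan-induced diabetes (DM). The genes were chosen by name alone, without regard to their values: integrins, cadherins and protocadherins, desmosomal proteins, catenins, vinculin and talins, connexins, claudins and other tight junction proteins, intercellular adhesion molecules and selectins, and the dystrophin complex. A probe set is the group of short oligonucleotides by which the array reads 1 transcript. The names matched 112 of the 23836 probe sets tested, and these stand for 61 of 6540 distinct genes. Some of these carry a family name without belonging to the family. ITGB1BP2 encodes melusin, a muscle protein that binds the tail of integrin beta 1. CTNNBL1 encodes a nuclear protein of the splicing machinery, CTNNAL1 a relative of alpha catenin, and CLDND1 and CLDND2 encode claudin domain proteins. The genes PKP2, DSG2, CDH5, CDH13, GJC1, CTNNA3, CLDN5, ESAM, SGCB and SGCD, which belong to the same structures, were not analysed here.

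The samples were 4 control dogs (D5, D6, D7 and D8) and 4 DM dogs (0292, 0294, 1087 and 1111), all male mongrels carrying implanted instruments, with a labelled body weight of 23 to 27 kg. Diabetes was induced with 40 to 60 mg/kg of intravenous alloxan, which destroys pancreatic beta cells, repeated in some dogs, and DM dogs were kept only if fasting glucose was high on day 7. Their hearts were taken 4 weeks after alloxan. No genotype was altered in either group, alloxan acts on the whole animal, and RNA came from whole tissue, so that fewer cells of a type and less RNA per cell cannot be told apart. Each dog had its own Canine Genome Array, and dogs are the replicates (n = 4 per group). Values are given as log2 signal, that is log2 of the quantile normalized signal plus 16, and a log2 fold change is the mean of the DM dogs minus the mean of the control dogs on that scale.

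Heart muscle cells are held end to end at the intercalated disc, where desmosomes anchor the desmin filaments, adherens junctions built from N-cadherin and catenins anchor the actin filaments, and gap junctions of connexins carry current from cell to cell. Along their sides the cells are fastened to the surrounding laminin and collagen by integrins, which talin and vinculin couple to actin, and by the dystrophin complex. The endothelium of the coronary vessels adds its own contacts and displays selectins and adhesion molecules, to which integrins of white blood cells bind.

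The arrays differed before any gene was compared. The hybridization controls, bacterial transcripts added in equal amount to each sample, had mean log2 deposited signals of 13.36, 13.09, 13.29 and 15.77 in D5, D6, D7 and D8, and of 17.72, 16.26, 16.12 and 15.17 in 0292, 0294, 1087 and 1111 (exact permutation p = 0.0571, two-sided, where the smallest possible value over the 70 assignments is 0.0286). Over the 112 adhesion probe sets, D8 had a mean correlation of 0.788 with the other control dogs, which had 0.881 to 0.887, and 0292 had the lowest among the DM dogs, 0.672 against 0.692 to 0.730. The GAPDH difference between the 3′ and the 5′ probe set was 4.36 ± 1.10 log2 in control and 1.76 ± 1.03 log2 in DM arrays (SD, n = 4, exact permutation p = 0.0286), and that of actin ran the other way, 3.31 ± 2.34 in control and 5.62 ± 1.56 in DM arrays (exact permutation p = 0.171). In D8 the GAPDH difference was 5.96 log2, against 3.57 to 4.25 in the other control dogs. The actin difference of D8 was 6.61 against 1.56 to 3.31, and lay within the DM range of 3.58 to 7.33. Scan dates are not given in the sources used here, so that an effect of the array run and one of diabetes cannot be told apart. The 14 cardiomyocyte markers measured of 18 listed had a mean level of 13.13 (D8) to 15.24 log2 in control dogs and 11.18 to 12.82 in DM dogs, which marks the tissue as heart muscle in both groups. These markers were lower in DM in 14 of 14 genes, with a median log2 fold change of -1.99 and 10 genes at an unadjusted p under 0.05. Troponin I (TNNI3) and myoglobin (MB) had log2 fold changes of -5.84 and -5.06, both with an adjusted p of 0.0608, and the part of these lower muscle marker values in the results below was not tested.

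Across the whole list, adhesion and junction genes lay on both sides of zero in equal number. Of 112 probe sets 56 were higher and 56 lower in DM, and their median log2 fold change was -6.05e-04, against 0.06 for all probe sets of the array. No adhesion probe set passed limma at an adjusted p under 0.05, in either direction, where 0.0168% of all probe sets passed as lower and 0% as higher. The lowest adjusted p was 0.0608, for PECAM1. At an unadjusted p under 0.05 limma gave 9 higher (8.04%) and 10 lower (8.93%), close to the 7.80% and 8.91% of all probe sets. By the criteria of the methods, a nominal P no higher than 0.01 and a 2-fold difference or more, there were 3 higher (2.68%) and 2 lower (1.79%), beside 2.45% and 2.52% of all probe sets, and after Benjamini-Hochberg adjustment the methods' t-test gave 0 in either direction. Every DM dog lay above every control dog in 4 probe sets (3.57%) and below in 6 (5.36%), beside 4.93% and 5.87% of the array. The share of called probe sets among the adhesion genes was therefore near that of the array in each of these counts, and what follows describes single genes whose values did not pass the adjusted test.

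The structures differed in where their probe sets lay. Desmosomal probe sets had the highest median log2 fold change, 1.10, with 10 higher and 3 lower of 13. Cadherins (0.63, 5 higher and 2 lower of 7), the vinculin and talin group (0.59, 7 and 3 of 10) and integrin beta chains (0.47, 7 and 4 of 11) also had medians above 0. The medians were below 0 for protocadherins (-1.09, 1 higher and 2 lower of 3), gap junction connexins (-1.04, 1 and 3 of 4), the immunoglobulin-type and selectin group (-0.54, 5 and 10 of 15), catenins (-0.35, 5 and 7 of 12), integrin alpha chains (-0.31, 5 and 9 of 14), tight junction proteins (-0.14, 6 and 8 of 14) and the dystrophin complex (-0.12, 4 and 5 of 9). These medians rest on few genes, since JUP and PKP4 alone give 8 of the 13 desmosomal probe sets, and no group was tested as a group. The median of all probe sets moved with the scaling of the arrays, to 0.34 for the signals as deposited, -0.25 with median centring and -1.65 when arrays were set to their hybridization controls. In that last scaling all 11 group medians lay below 0, and with the signals as deposited those of the tight junction group (0.17) and the dystrophin complex (0.18) lay above 0. A scaling that moves all probe sets of an array alike leaves a group's distance from the median of all probe sets nearly as it was, so those distances are no sign of stability.

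The level of a probe set moved with its log2 fold change over the whole array. Of the 9534 probe sets with a mean below 6.75 log2, 6370 were higher in DM (median 0.43), and of the 14302 above it 8312 were lower (median -0.24). In the desmosome, 7 of 13 probe sets lay below 6.75 log2, all 7 of them higher in DM with a median of 1.15. The 6 above that level were 3 higher and 3 lower with a median near 0 (-4.98e-03). The integrin alpha chains had medians of 0.34 below (6 probe sets) and -0.66 above it (8). Protocadherins, catenins and the dystrophin complex also had the lower median above that level. The median was higher above that level for vinculin and talins (0.41 below, 0.82 above), integrin beta chains (0.05, 0.51) and cadherins (0.47, 0.75). So it was for tight junction proteins (-0.20, 0.03), connexins (-1.11, -0.98) and the immunoglobulin-type and selectin group (-0.68, -0.42). The part of the signal level in the group medians was not tested.

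**Figure D1:**
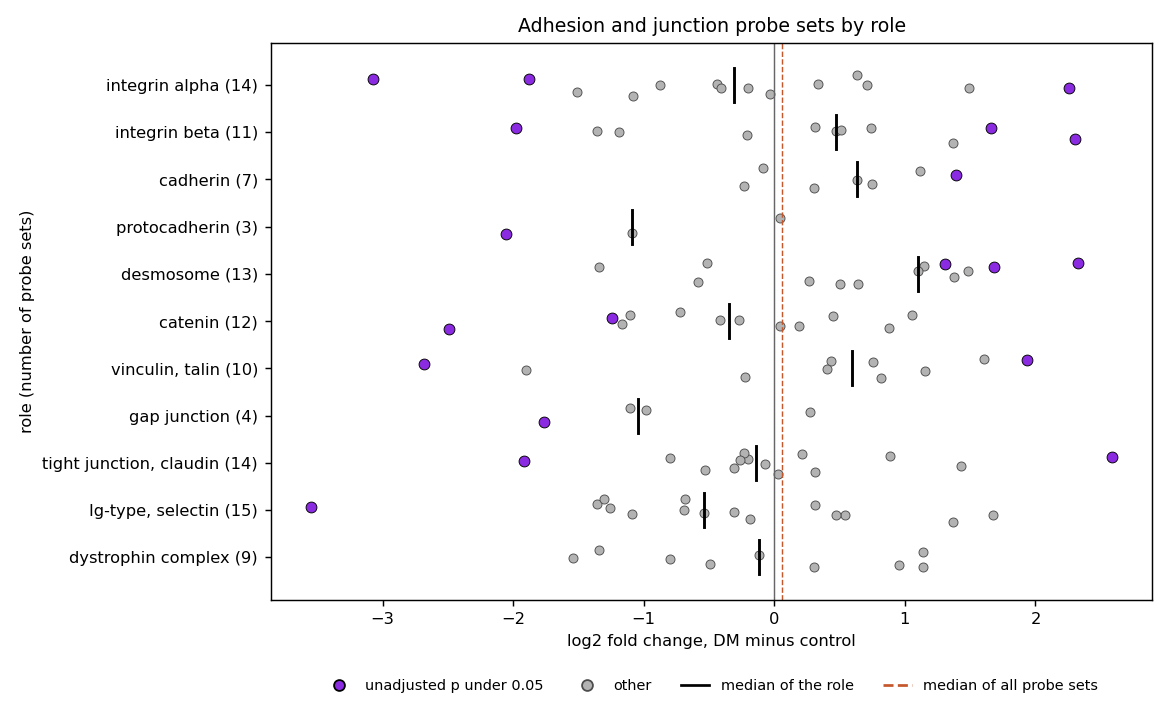
Log2 fold change (DM minus control, horizontal axis) of each of the 112 adhesion and junction probe sets, by the structure they belong to (rows, with the number of probe sets). Purple points have an unadjusted limma p under 0.05, black bars are the median of each structure and the dashed line is the median of all probe sets; the desmosome median of 1.10 lies farthest to the right, and the single largest value is PECAM1 at -3.55 on the left.

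In the desmosome, plakophilin 4 and desmocollin 2 had higher values in every DM dog, plakoglobin gave opposed readings, and desmoplakin was slightly lower by both of its probe sets. Desmocollin 2 (DSC2, 1590484_at) is a cadherin of the desmosome that heart muscle uses. Its log2 signal was 8.81, 9.47, 8.81 and 9.54 in D5, D6, D7 and D8, and 9.86, 10.78, 10.64 and 10.59 in 0292, 0294, 1087 and 1111. The log2 fold change was 1.31 ± 0.56 (SE, adjusted p = 0.260), and the lowest DM dog lay 0.32 log2 above the highest control dog. Plakophilin 4 (PKP4), an armadillo protein of desmosomes and adherens junctions also called p0071, was read by 4 probe sets, all higher in DM, with log2 fold changes from 0.51 to 1.68. The strongest signal, of 1586681_at, was 12.71, 12.74, 13.07 and 13.68 log2 in the control dogs and 14.02, 15.23, 15.25 and 14.45 in the DM dogs (1.68 ± 0.58, adjusted p = 0.179). The groups did not overlap, with D8 the highest control dog and 0292 the lowest DM dog. In the other 3 PKP4 probe sets the groups overlapped.

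Plakoglobin (JUP) links desmosomal cadherins to desmoplakin and serves the adherens junction as well. Probe set 1582893_at read 5.99, 4.71, 4.90 and 5.39 log2 in the control dogs and 5.46, 8.22, 8.61 and 8.01 in the DM dogs (2.33 ± 0.74, adjusted p = 0.148), so 3 DM dogs were high and 0292 lay within the control range. JUP probe sets 1582826_at and 1582892_at had log2 fold changes of 1.48 and 1.10, with control means of 5.22 and 5.46 log2 and a mean over all dogs in the lowest 20% of the array (under 6.125 log2). The JUP probe set with the highest mean signal, 1586522_at, ran the other way. It read 7.71, 8.20, 8.15 and 9.40 log2 in control dogs and 8.34, 6.75, 6.58 and 6.40 in DM dogs (-1.35 ± 0.65, adjusted p = 0.319). The 3 probe sets that were higher and the 1 that was lower give JUP no single direction in these arrays. Desmoplakin (DSP), which ties the desmosomal plaque to desmin, was among the strongly detected junction genes, with 12.55, 12.40, 12.16 and 12.03 log2 in control and 11.45, 11.42, 11.85 and 12.09 in DM dogs for 1593889_at. Its 2 probe sets gave log2 fold changes of -0.59 and -0.52 (adjusted p = 0.620 and 0.682), with 1111 inside the control range in both. DSG1 and DSG3, desmogleins best known from skin, had low signals with means of 4.93 to 6.31 log2 and log2 fold changes of 0.26 and 1.15.

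In the adherens junction, both strong probe sets of beta catenin were lower in DM and the classical N-cadherin of heart muscle did not separate the groups. Beta catenin (CTNNB1), which joins the cadherin tail to alpha catenin and also acts in Wnt signalling, read 15.01, 15.01, 14.93 and 13.94 log2 in control dogs and 13.46, 13.21, 13.39 and 13.83 in DM dogs for 1599766_s_at (-1.25 ± 0.56, adjusted p = 0.286). All DM dogs lay below all control dogs, but D8 stood only 0.10 log2 above 1111. The second strong probe set, 1589978_s_at, had a log2 fold change of -1.17 with D8 (13.15) below 1111 (13.34), and the remaining one, at a low level, read 0.88. Alpha catenin (CTNNA1, 1584685_s_at), the actin-binding partner, read 13.46 to 13.98 log2 in control dogs and 13.65 to 15.04 in DM dogs (0.45 ± 0.57, adjusted p = 0.731), where 0292 alone was above the control range. Its other probe set read 0.19.

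N-cadherin (CDH2), the cadherin of the intercalated disc, was at 6.66, 8.06, 8.08 and 7.67 log2 in control and 5.20, 8.75, 6.91 and 9.29 in DM dogs. Its log2 fold change was -0.08 ± 0.85 (adjusted p = 0.970), with DM dogs both above and below all control dogs. CDH6, a cadherin studied mostly in kidney and brain, read 6.87, 7.51, 6.16 and 7.60 log2 in control and 9.52, 8.47, 8.36 and 7.38 in DM dogs for 1587153_at (1.40 ± 0.64, adjusted p = 0.296), with 1111 inside the control range, while its other probe set read -0.23. E-cadherin (CDH1), CDH16 and CDH18 had log2 fold changes of 0.31 to 1.11, none at an unadjusted p under 0.05. The catenin relatives were mixed. CTNNAL1 read 9.50 to 9.87 log2 in control and 9.55 to 10.02 in DM dogs, with -0.27 for its other probe set, and the neural catenins CTNNA2 and CTNND2 had log2 fold changes of -1.10 to -0.42 in 3 probe sets. The splicing protein CTNNBL1, which is no junction protein, read 8.44, 8.31, 8.32 and 8.31 log2 in control and 4.65, 4.86, 5.74 and 8.17 in DM dogs for 1587570_s_at (-2.49 ± 0.76, adjusted p = 0.137). In 0292, 0294 and 1087 the signal was near the low end of the array, and 1111 was close to the control dogs, and the other CTNNBL1 probe set read 1.05.

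The connexins of heart muscle had lower means in DM, with 1 DM dog apart. Connexin 43 (GJA1), the main gap junction protein of the working ventricle, read 8.17, 8.13, 8.06 and 7.74 log2 in control dogs and 6.65, 6.38, 6.50 and 8.65 in DM dogs. The log2 fold change was -0.98 ± 0.64 (adjusted p = 0.471): 0292, 0294 and 1087 were below every control dog and 1111 above every one. Connexin 40 (GJA5), found in atrial muscle, the conduction fibres and arterial endothelium, read 9.31, 9.27, 9.89 and 9.43 log2 in control dogs and 5.72, 7.82, 8.02 and 9.28 in DM dogs (-1.76 ± 0.73, adjusted p = 0.247), where 1111 fell within the narrow control range. GJB1, connexin 32 of liver and nerve, had log2 fold changes of -1.11 and 0.28 in its 2 probe sets. In the same dogs the mean level of the cardiomyocyte markers was 11.50, 11.96, 11.18 and 12.82 log2 in 0292, 0294, 1087 and 1111, so that 1111 had the highest muscle marker level of the DM group as well as the highest GJA1 and GJA5. The remaining DM dogs did not keep that order: 0294 had the lowest GJA1, and 1087, lowest in markers, was above 0292 and 0294 in GJA5. D8 had the lowest control marker level (13.13 log2), with the lowest control GJA1 but a GJA5 above D5 and D6. The part of the muscle marker level in the connexin values was not tested.

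**Figure D2:**
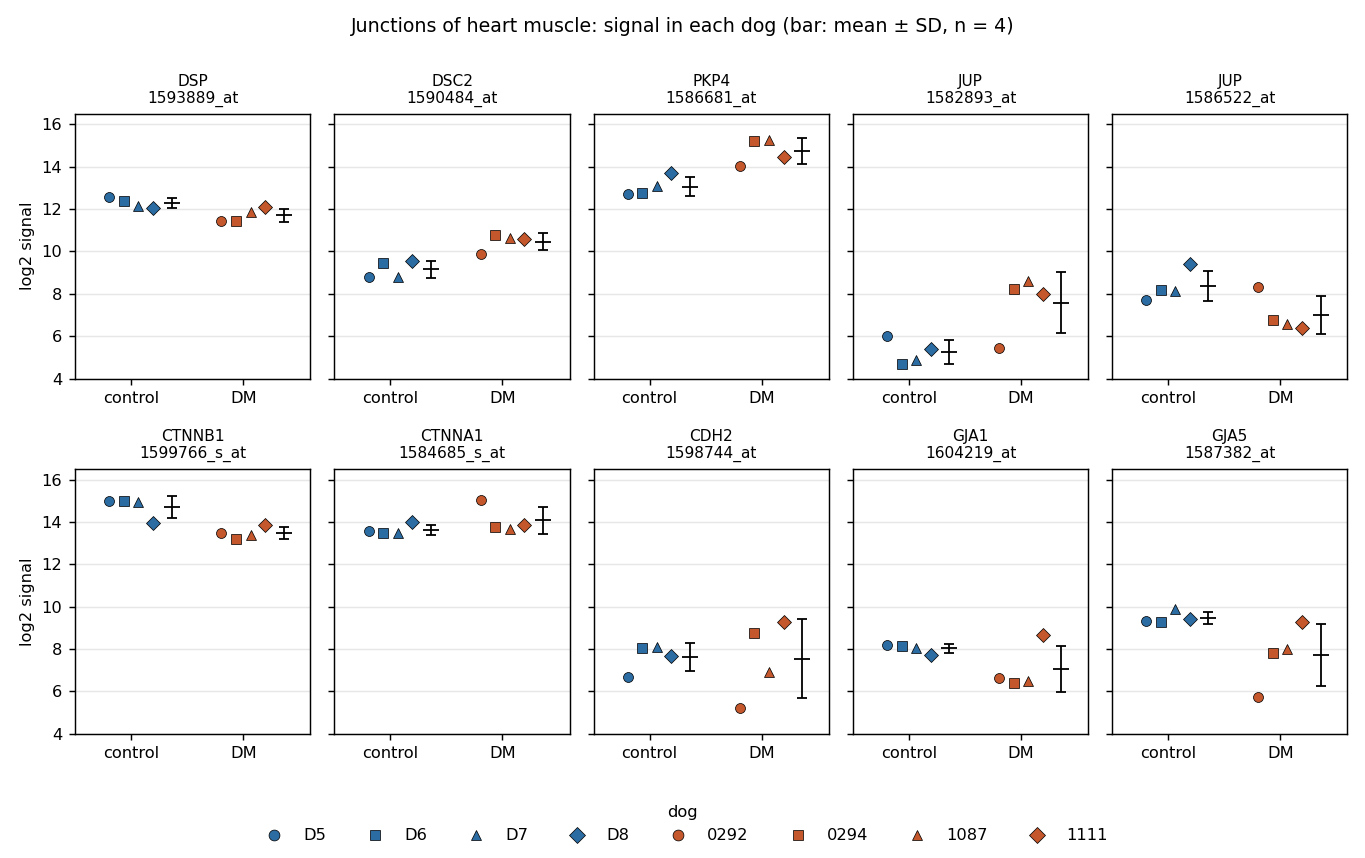
Log2 signal (vertical axis) of intercalated disc probe sets in each dog, control dogs in blue and DM dogs in orange with 1 symbol per dog, beside the mean ± SD (n = 4). DSC2 and PKP4 (1586681_at) lie higher in all DM dogs, CTNNB1 (1599766_s_at) lies lower in all of them, and DM dog 1111 stands at 8.65 for GJA1 while the other DM dogs lie between 6.38 and 6.65.

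Integrins are pairs of an alpha and a beta chain, and the chains best known from cardiomyocytes had no common direction here. Integrin alpha 7 (ITGA7), the laminin-binding chain of striated muscle, read 10.93, 10.90, 10.96 and 9.70 log2 in control dogs and 8.62, 9.18, 6.68 and 10.47 in DM dogs (-1.88 ± 0.77, adjusted p = 0.245). D8 lay below 1111, so the groups overlapped by that pair. Its usual partner integrin beta 1 (ITGB1, 1584175_at) read 8.22, 8.71, 8.35 and 6.16 log2 in control and 5.94, 8.97, 9.08 and 9.33 in DM dogs (0.47 ± 0.85, adjusted p = 0.816), with D8 and 0292 well below the other dogs of their groups, and the second probe set read 0.31 at a low level. Melusin (ITGB1BP2), which binds that beta 1 chain in muscle, had a log2 fold change of 1.37 ± 0.79. The fibronectin receptor chain ITGA5, found on fibroblasts and endothelium, had the lowest log2 fold change of the integrin probe sets. It read 10.72, 11.00, 10.71 and 9.63 log2 in control dogs and 6.70, 5.01, 9.25 and 8.82 in DM dogs for 1588588_at (-3.07 ± 0.87, adjusted p = 0.120), with no overlap, while the other ITGA5 probe set read 1.49 ± 0.79 from a lower level. Nothing in these values decides between those 2 readings of ITGA5.

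Integrin alpha 6 (ITGA6), a laminin receptor chain of endothelium and epithelium, read 8.87 to 9.24 log2 in control dogs and 11.19, 8.82, 8.77 and 9.04 in DM dogs for 1597106_at, so its log2 fold change of 0.33 came from 0292 alone, and its other 2 probe sets read -1.08 and -1.51. Alpha v (ITGAV), the partner of several beta chains that bind vitronectin, read 9.04 to 10.11 log2 in control and 8.85 to 9.76 in DM dogs (-0.41). Integrin beta 5 (ITGB5), one of those beta chains, was higher in each DM dog by its stronger probe set only. Probe set 1598715_at read 10.80, 10.85, 11.26 and 11.25 log2 in control dogs and 13.99, 12.57, 12.12 and 12.10 in DM dogs (1.66 ± 0.61, adjusted p = 0.202), with no overlap and a gap of 0.83 log2 between the groups. The second ITGB5 probe set read 0.74 with overlap, and in it 0292 (4.84 log2) lay below every control dog. Beta 8 (ITGB8), another partner of alpha v, read 4.56, 5.32, 4.50 and 7.45 log2 in control and 8.29, 8.92, 6.59 and 7.24 in DM dogs (2.30 ± 0.78, adjusted p = 0.172), where D8 lay inside the DM range. ITGA11, ITGB4 and ITGB6, chains of fibroblasts and epithelia, had log2 fold changes of -1.19 to 0.71.

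The white blood cell integrin Mac-1, made of ITGAM and ITGB2, gave its chains opposite signs. ITGAM (1599894_at) read 4.94, 5.36, 4.70 and 5.05 log2 in control dogs and 8.17, 8.86, 7.19 and 4.87 in DM dogs (2.26 ± 0.79, adjusted p = 0.182), from control values near the low end of the array, and 1111 was at the control level. The other ITGAM probe set, with the stronger signal (mean 8.74 against 6.14 log2), read 0.63 with overlap. The beta 2 chain ITGB2, shared by all integrins of its white blood cell family, read 6.51, 7.94, 7.26 and 8.84 log2 in control dogs and 5.05, 7.36, 4.77 and 5.47 in DM dogs (-1.98 ± 0.74, adjusted p = 0.206), with 0294 inside the control range. Other white blood cell chains were lower in mean, with ITGB7 at -1.36 and ITGAE at -0.20. The leukocyte marker list had 4 higher and 6 lower of 10 measured genes, a median of -0.34 and mean levels of 8.55 to 9.18 log2 in control and 7.97 to 9.89 in DM dogs. Within it lysozyme (LYZ) read 10.66 to 12.72 log2 in control and 14.09 to 16.34 in DM dogs (3.53 ± 0.69, adjusted p = 0.0608), and the macrophage marker CD68 had a log2 fold change of 1.47, both with no overlap. On the same list CSF1R (-1.20), CD14 (-1.10), LCP1 (-1.08) and TYROBP (-0.57) were lower and CD163 (1.62) was higher, all with overlap. The platelet integrin chains ITGA2B and ITGB3 had log2 fold changes of -0.44 and -0.21. Both were highest among the control dogs in D8 (8.90 and 8.34 log2), whose mean over the 3 measured platelet markers, a list that includes these chains, was 8.34 log2 against 6.14 to 6.27 in the other control dogs.

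Of the adaptors that tie integrins to actin, talin 2 had higher values in all of its probe sets and talin 1 had values in both directions. Talin 2 (TLN2), the talin most tied to striated muscle, was higher in DM by 3 of 3 probe sets, with log2 fold changes of 0.82 to 1.94. Probe set 1596147_at read 4.92, 6.53, 5.90 and 5.92 log2 in control dogs and 8.23, 6.74, 7.93 and 8.11 in DM dogs (1.94 ± 0.62, adjusted p = 0.149), with no overlap and a gap of 0.21 log2 between D6 and 0294. In the stronger TLN2 probe sets, 1594623_at and 1594624_at (mean 7.41 log2 each, against 6.78), the groups overlapped. In 1594624_at 0292 (5.62 log2) lay below every control dog. Talin 1 (TLN1), the form found in most cells, read 9.11, 9.30, 8.76 and 5.62 log2 in control dogs and 5.53, 5.60, 5.67 and 5.26 in DM dogs for 1583455_at (-2.69 ± 0.79, adjusted p = 0.127). Here D8 was at the level of the DM dogs and the other 3 control dogs were 3 log2 or more above them. A second TLN1 probe set, 1598130_at, read -1.90 with D8 again among the DM dogs, while 1585346_at, the TLN1 probe set with the highest mean signal, read 0.43 and the remaining one 0.76. Vinculin (VCL), which strengthens the talin link, had a mean in the lowest 20% of the array in all 3 probe sets, with log2 fold changes of 1.15, 0.41 and -0.23.

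**Figure D3:**
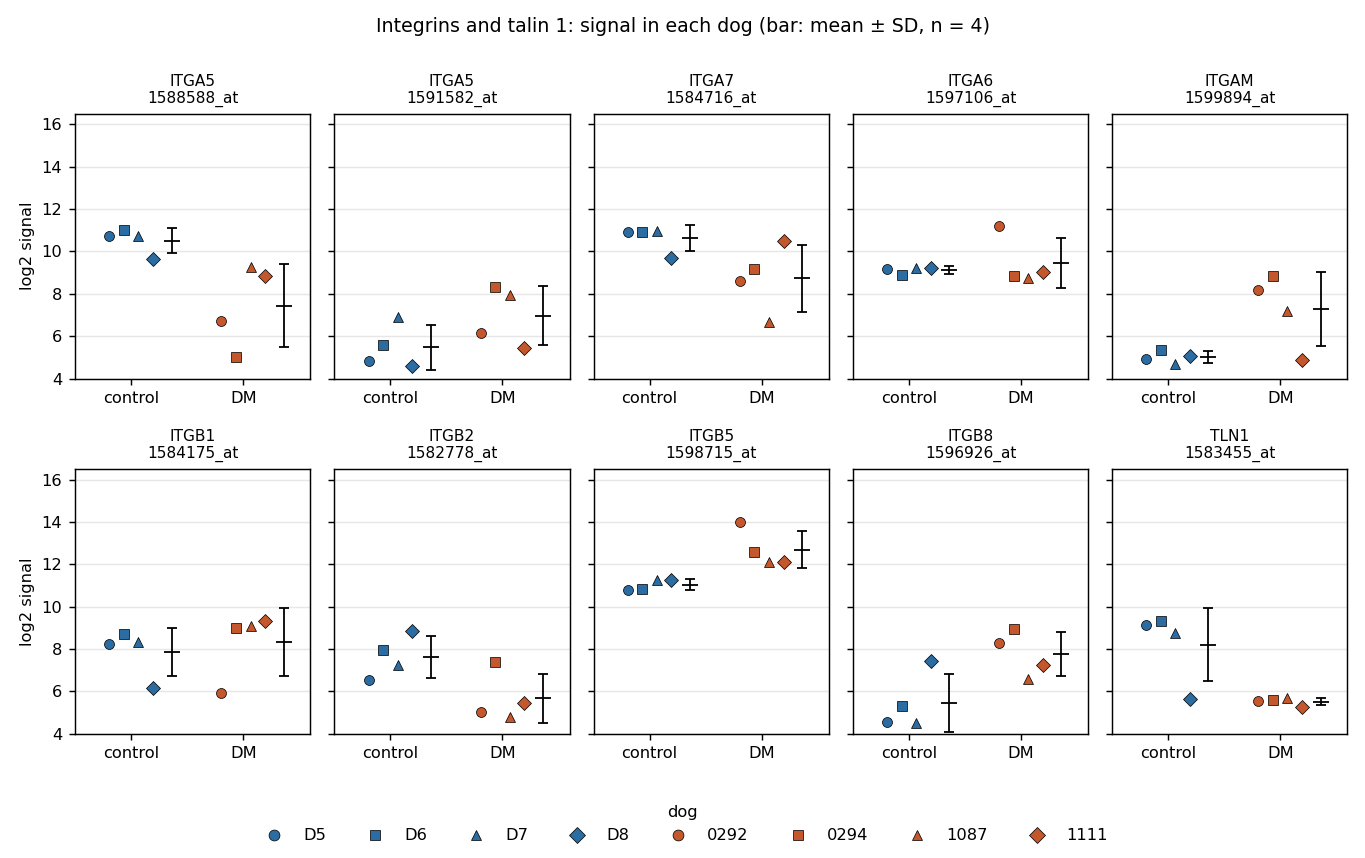
Log2 signal (vertical axis) of integrin probe sets and talin 1 in each dog, control dogs in blue and DM dogs in orange with 1 symbol per dog, beside the mean ± SD (n = 4). The 2 ITGA5 probe sets run in opposite directions, ITGB5 (1598715_at) lies higher in all DM dogs, and for TLN1 control dog D8 at 5.62 lies with the DM dogs at 5.26 to 5.67.

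The dystrophin complex, which joins actin inside the muscle cell to laminin outside, was close to balance. Dystrophin (DMD) had a strong probe set, 1582438_at, with 14.08, 13.98, 13.52 and 13.37 log2 in control dogs and 11.46, 14.02, 14.38 and 14.61 in DM dogs (-0.12 ± 0.73, adjusted p = 0.949). Only 0292 was low, and 1087 and 1111 were above every control dog. Its weaker probe sets read 1.13 and -0.80. Dystroglycan (DAG1), the laminin receptor of the complex, read 9.49, 10.03, 9.53 and 9.63 log2 in control dogs and 7.82, 9.03, 9.26 and 7.19 in DM dogs for 1597806_at (-1.34 ± 0.63, adjusted p = 0.301), with no overlap, while its other probe sets read -0.49 and 0.30. Alpha sarcoglycan (SGCA), a muscle member of the complex, read 6.44 to 8.49 log2 in control dogs and 7.77, 7.60, 4.72 and 4.94 in DM dogs (-1.54 ± 0.83, adjusted p = 0.371). Epsilon sarcoglycan (SGCE), its more widely expressed relative, was higher by both probe sets, 0.95 and 1.14, neither at an unadjusted p under 0.05.

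Of the tight junction proteins, the scaffold ZO-1 (TJP1) and claudin 10 (CLDN10) had strong signals. TJP1 read 12.89, 12.83, 12.56 and 12.76 log2 in control dogs and 11.88, 12.50, 12.69 and 12.73 in DM dogs (-0.31 ± 0.54, adjusted p = 0.812), where 0292 and 0294 lay below the control range. Its relative ZO-3 (TJP3), known from epithelia, read 5.72, 4.86, 4.85 and 4.64 log2 in control dogs and 9.96, 8.41, 6.40 and 5.65 in DM dogs (2.59 ± 0.86, adjusted p = 0.164), from control values near the low end of the array, and 1111 was below D5. Claudin 10 had 4 probe sets. The strongest, 1583659_s_at, had means of 10.75 log2 in control and 10.96 in DM dogs (0.21), the weaker 1593098_at and 1593099_at had log2 fold changes of -0.07 and 0.89, and 1592862_at read 8.39, 8.29, 7.50 and 4.65 log2 in control and 5.87, 4.85, 4.71 and 5.74 in DM dogs (-1.91 ± 0.82, adjusted p = 0.258), with D8 below all DM dogs. Occludin (OCLN), the claudins CLDN2, CLDN3 and CLDN18, and the claudin domain proteins had log2 fold changes of -0.80 to 1.43, none at an unadjusted p under 0.05. The epithelial and mesothelial marker list, measured as the other source of such genes, includes CDH1 and had 4 of 4 genes higher with a median of 0.55 and none at an unadjusted p under 0.05.

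The adhesion molecule PECAM1 (CD31), which lines the contacts between endothelial cells and is carried by platelets and white blood cells, gave the log2 fold change farthest from 0 in the list and readings in both directions. Probe set 1594669_at read 10.51, 10.58, 10.14 and 9.08 log2 in D5, D6, D7 and D8 and 5.61, 6.23, 6.07 and 8.20 in 0292, 0294, 1087 and 1111 (-3.55 ± 0.69, adjusted p = 0.0608). Every DM dog lay below every control dog, with D8 and 1111 nearest to each other, 0.88 log2 apart, and the ratio of the means was 11.7-fold. Of the other 6 PECAM1 probe sets 4 were lower and 2 higher. The one with the strongest signal, 1589265_x_at, read 14.91, 15.28, 14.96 and 14.51 log2 in control dogs and 15.47, 13.17, 14.78 and 15.02 in DM dogs (-0.31 ± 0.63, adjusted p = 0.844), so its groups overlapped almost wholly. The remaining log2 fold changes were -1.25, -1.36, -1.31, 0.54 and 0.31.

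**Figure D4:**
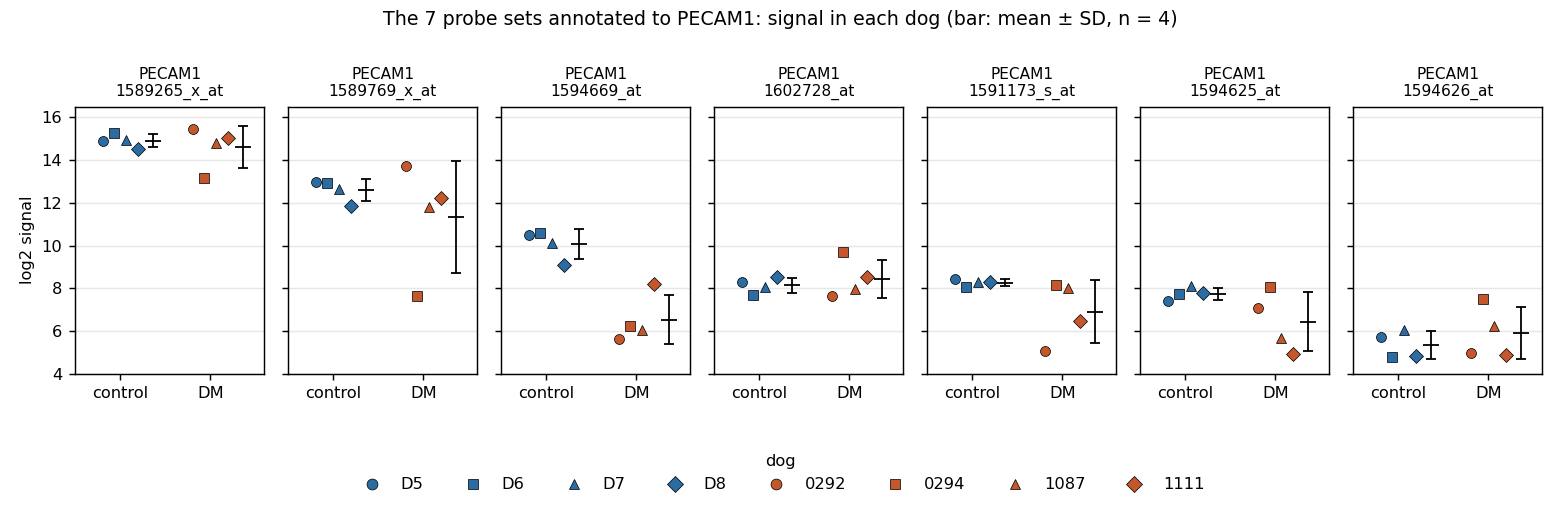
Log2 signal (vertical axis) of the 7 PECAM1 probe sets in each dog, control dogs in blue and DM dogs in orange with 1 symbol per dog, beside the mean ± SD (n = 4). Only 1594669_at separates the groups (-3.55), and the probe set with the strongest signal, 1589265_x_at, differs by -0.31.

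The other endothelial genes of the list had values in both directions. PCDH12, an endothelial protocadherin, read 7.77, 8.02, 8.41 and 8.47 log2 in control and 6.42, 5.28, 5.15 and 7.61 in DM dogs (-2.05 ± 0.66, adjusted p = 0.153), with no overlap and 1111 only 0.16 log2 below D5. PCDH9, a protocadherin known from brain, had log2 fold changes of -1.09 and 0.04 in its 2 probe sets. ICAM2, a constitutive endothelial ligand of white blood cell integrins, was lower by both probe sets (-0.54 and -0.69) with overlap. The cytokine-induced molecules ICAM1 and VCAM1 had log2 fold changes of -0.18 for the single ICAM1 probe set and of 0.47 (1582548_at) and -1.09 (1605636_s_at) for VCAM1. In ICAM1 and VCAM1 1582548_at, D8 was far below the other control dogs: ICAM1 read 8.27, 8.38, 8.28 and 6.51 log2 in control and 5.12, 8.48, 8.10 and 9.01 in DM dogs. E-selectin (SELE), shown by activated endothelium, read 6.53, 6.78, 7.58 and 4.80 log2 in control and 7.32, 9.28, 6.54 and 9.25 in DM dogs (1.68 ± 0.81, adjusted p = 0.315). P-selectin (SELP), stored in endothelium and platelets, read 6.53, 5.94, 6.39 and 9.03 log2 in control dogs and 8.23, 7.87, 9.14 and 8.13 in DM dogs for 1582879_at (1.37 ± 0.73, adjusted p = 0.367), while its other probe set read -0.68. For 1582879_at all 4 DM dogs lay above D5, D6 and D7, and D8 was also the control dog with the high platelet markers. The 7 measured endothelial markers, among them the strongest PECAM1 probe set, whose value is the median, were 3 higher and 4 lower, with a median of -0.31 and mean levels of 9.25 to 10.10 log2 in control and 8.52 to 10.45 in DM dogs, and FLT1 (2.07) and TIE1 (-2.0), a pair of endothelial receptor tyrosine kinases, stood at its 2 ends.

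The genes that work with these structures but do not carry their names were read in the same fit, and 0 of them had an adjusted p under 0.05. Of 15 measured focal adhesion partners 8 were higher and 7 lower, with 1 higher and 3 lower at an unadjusted p under 0.05. LIMS1 (PINCH-1), which binds integrin-linked kinase, read 9.53 to 9.95 log2 in control and 10.94 to 11.89 in DM dogs (1.65), whereas the kinase itself, ILK, read 9.33, 9.16, 9.21 and 6.43 log2 in control dogs and 5.15, 5.40, 7.25 and 6.43 in DM dogs (-2.48, adjusted p = 0.146). NRAP, an actin-anchoring protein of the disc, had a log2 fold change of -2.92 with no overlap. Every DM dog lay above every control dog in 4 of these 15 genes, LIMS1 among them, and below in 1, NRAP. The shares over all probe sets were 4.93% and 5.87%. Of 15 measured partners at the intercalated disc 5 were higher and 10 lower, with 1 and 3 at an unadjusted p under 0.05. Desmin (DES), the filament that desmosomes hold, read 11.54, 11.49, 10.97 and 10.05 log2 in control and 8.41, 8.07, 8.15 and 9.55 in DM dogs (-2.47 ± 0.62, adjusted p = 0.0923). CXADR, the coxsackievirus and adenovirus receptor of the disc, read 9.76, 10.14, 10.47 and 11.76 log2 in control and 12.67, 12.80, 12.79 and 11.78 in DM dogs (1.98 ± 0.62, adjusted p = 0.146), where D8 and 1111 nearly met.

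The 10 measured partners of the dystrophin complex were 3 higher and 7 lower with 0 at an unadjusted p under 0.05 in limma. The glycosyltransferases that prepare dystroglycan for laminin, POMGNT1 and POMT1, had log2 fold changes of -1.62 and -1.31. Of 12 measured partners of white blood cell and endothelial adhesion 5 were higher and 7 lower, with 2 and 3 at an unadjusted p under 0.05. Radixin (RDX), which links membrane adhesion proteins to actin, read 10.45, 10.27, 10.71 and 11.72 log2 in control and 12.94, 13.94, 12.87 and 13.44 in DM dogs (2.51 ± 0.59, adjusted p = 0.0867), and CD47, an integrin-associated protein, had a log2 fold change of -2.78 with no overlap. In each of these 4 lists the probe sets at an unadjusted p under 0.05, where there were any, lay in both directions. JAM3 (-1.67) stands on the intercalated disc list and on this last list, and is counted as lower in each.

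Different probe sets for 1 gene often gave different directions. Among the 61 genes 31 had several probe sets, and in 13 of these all probe sets had 1 direction, among them PKP4, TLN2, DSP, ICAM2, ITGAM, ITGB5, ITGB1 and SGCE. In 18 genes, JUP, PECAM1, ITGA5, TLN1, CTNNB1 and CLDN10 among them, the probe sets had both directions, and the median range between the log2 fold changes of 1 gene was 1.38. Directions were not counted for the other genes of the array, so this is not shown to be particular to adhesion genes. In 23 of the 112 probe sets the mean signal lay in the lowest 20% of the array. The DM dogs also varied more than the control dogs. The median SD of an adhesion probe set was 0.674 log2 in control and 1.36 in DM dogs, and the DM SD was the larger in 89 of 112 (79.5%), beside 76.7% of all probe sets. Of the 10 probe sets that were lower at an unadjusted p under 0.05, D8 was the lowest control dog in 7 and 1111 the highest DM dog in 6. Of the 9 that were higher, D8 was the highest control dog in 4 and 1111 the lowest DM dog in 4. These places were not counted over all probe sets, so they are no trait of the adhesion genes.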

How the data were processed

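Left ventricular RNA of 4 control and 4 DM dogs was hybridized to 1 Canine Genome Array each. The authors deposited 1 signal intensity per probe set, computed with MAS5 and scaled per array to a mean of 500 after trimming 2% at either end. The RMA values named in the methods were not used here. From the deposited intensity, all 23913 probe sets were quantile normalized, 16 was added and log2 was taken. The manufacturer's 77 controls were then left out. The remaining 23836 probe sets entered 1 limma fit of DM against control (limma 3.58.1, R 4.3.3, two-sided, group only), with Benjamini-Hochberg adjustment over all of them and a threshold of 0.05. The methods' t-test was run on the same values with equal variances. A variance stabilization, named but not detailed in the methods, was not applied, so its counts are not those of the study's own formula. Groups came from the labels, and single array measures were compared by exact permutation. Symbols came from the platform annotation. For 101 of the 112 adhesion probe sets (10046 of 10549 on the array) the symbol shown was that of the gene identifier, whether or not it differed.

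Named probe sets were the 3 with the largest change at an unadjusted p under 0.05 in each structure (or the 2 with the smallest p), and a list of well known junction genes, each by its strongest probe set. Other probe sets of these genes, and any further gene named, were chosen after their values were seen. Genes of marker and partner lists were read by their strongest probe set. The members, lists and tests were chosen with earlier results of these data known. The steps were tested on simulated data. Alternatives were the scaling, the offset, a filter on dim probe sets, 1 probe set per gene, array weights, and leaving out each dog. Depth has no counterpart here, and the number of arrays limits the precision. Fibroblast, smooth muscle and adipocyte markers were also read: 4 higher and 4 lower of 8 (median 0.01), 1 and 3 of 4 (-1.37), and 2 and 1 of 3 (0.51). Figures were drawn with matplotlib 3.10.9.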

Additional observations from a re-analysis of the deposited data

Results flagged for a closer look

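In 11 of 86 groups of 4 dogs, 1 dog stood so far from the others that its gap, divided by the range of the group, exceeded Dixon's critical value. Chance gives about 1 in 20 such groups, and several of these values share a dog. That rate holds for groups not picked by their values, whereas part of the named probe sets were picked by p. The same was not counted over all probe sets, so the count is no trait of the adhesion genes. Over all probe sets D8 had the lowest mean correlation among the control dogs (0.773 against 0.862 to 0.863). It accounted for 6 of the 11 flagged groups. It was the low dog for ITGA7 (9.70 log2, nearest other control dog 10.90), CTNNB1 1599766_s_at (13.94 against 14.93), TLN1 1583455_at (5.62 against 8.76), ICAM1 (6.51 against 8.27) and VCAM1 1582548_at (5.00 against 7.94), and the high dog for CDH18 (6.65 against 4.81). DM dog 0292 accounted for 3, being high for ITGA6 1597106_at (11.19 against 9.04) and CTNNA1 1584685_s_at (15.04 against 13.84) and low for ITGB1 1584175_at (5.94 against 8.97). DM dog 1111 was high for GJA1 (8.65 against 6.65). Control dog D5 was above the other control dogs for CTNNBL1 1587570_s_at by a small step (8.44 against 8.32), in a group whose whole range was narrow.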

How the results depend on the processing

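For the 43 named probe sets, 14 settings each (all but hybridization control scaling, the dim filter and 1 probe set per gene) gave 602 comparisons, of which 553 kept the direction and the side of the adjusted threshold, 14 passed that threshold, 0 fell back from it and 35 had the other sign. No adhesion probe set passed the threshold in the main fit, so none could fall back, and the 553 stayed on the side that does not pass. The 19 probe sets at an unadjusted p under 0.05 kept their sign in all 14. They were picked by p in these same arrays, so a kept sign says little about stability. With arrays set to their hybridization controls DSC2, PKP4, ITGB5 and CDH6 had the other sign (15 of 19 kept it). Those still at an unadjusted limma p under 0.05 were 19 with an offset of 64 and 13 to 18 with 1 dog left out. They were 14 with median centring and 10 with hybridization control scaling. In that scaling 14 of the 43 named and 47 of all 112 had the other sign, each of them higher in DM before, as did 10401 of 23836 on the array. The count at an adjusted p under 0.05 was 1 with median centring and with an offset of 64 (PECAM1 1594669_at), 3 with array weights and 35 with hybridization control scaling, where 1.00%, 1.87%, 3.87% and 32.2% of all probe sets passed. Leaving out 1 dog gave 0 to 3: 2 without D8 (TLN1 1583455_at and PECAM1 1594669_at) and 3 without 1111 (that PECAM1 probe set, ITGAM and CTNNBL1), beside 1.36% and 1.99% of all probe sets. Leaving out D8 and 0292 together, chosen after seeing the data, gave 4 (JUP 1582893_at, TLN1, CLDN10 and PECAM1) beside 3.99% of all probe sets. Adjusted p of PECAM1 1594669_at under these settings was as low as 0.0213, against 0.0608.

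The 9 higher at an unadjusted p became 16 with the signals as deposited (10.8% of all probe sets), 5 with median centring (4.14%) and 0 with hybridization control scaling (0.0629%), and the 10 lower became 48 in that scaling (45.2%), 17 with array weights (11.95%) and 6 (without D7) to 13 with 1 dog left out. By the criteria of the methods the 3 higher became 0 with median centring and with hybridization controls, and 0 (without D5 or D7) to 4 with 1 dog left out, with 1 without 0294 or 1087, while the 2 lower became 1 as deposited, 12 with hybridization controls (10.8%), 1 with 1 probe set per gene, 7 without D8 and 0292 (3.52%), and 1 (without D5, D6, D7 or 1087) to 5 (without D8 or 1111) with 1 dog left out. The 4 with all DM dogs above became 1 with median centring, 0 with hybridization controls, 16 without D8 and 0292 (14.9%) and 4 to 10 with 1 dog left out (7 without D8, 10 without 0292 and 9 without 1111). The 6 below became 15, 18 and 6 to 14 under hybridization controls, both dogs left out and 1 dog left out (10 without D6, 13 without D8, 11 without 0294 and 14 without 1111). On the array 16.8%, 15.4% and 6.46% to 11.7% lay below in these settings. Fewer dogs make no overlap easier to reach. Counts printed here without a share of all probe sets cannot be set against the array, and nothing is read from them about the adhesion genes. The median of the adhesion probe sets was -1.56 with hybridization controls.

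In those 14 settings, 9 named probe sets with log2 fold changes from -0.31 to 0.47 had the other sign in at least 1, and the cause was not tested. With the signals as deposited these were CDH2 (0.35), CTNNAL1 (-0.17), ICAM1 (0.24), PECAM1 1589265_x_at (0.50) and DMD (0.18). With median centring they were ITGA6 (-0.45) and CTNNAL1 (-0.76), and with an offset of 64 CDH2 (0.070). With array weights they were CDH2 (0.32), VCL (0.35), VCAM1 (-0.19) and DMD (0.16), and without D8 and 0292 ITGA6 (-0.25), CDH2 (0.79), VCL (0.51), ICAM1 (0.26), VCAM1 (-0.19) and DMD (0.45). With 1 dog left out they ranged from -0.28 to 0.55 for ITGA6, -0.080 to 1.33 for ITGB1, -0.67 to 0.75 for CDH2, -0.035 to 0.13 for CTNNAL1, -0.87 to 0.28 for VCL, -0.63 to 0.67 for ICAM1, -0.57 to 0.17 for PECAM1 1589265_x_at, -0.29 to 0.97 for VCAM1 and -0.45 to 0.59 for DMD. No paired analysis was possible because the labels give the dogs of the 2 groups no shared numbers.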
